A study of Danio rerio with 12 samples.

Results

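The difference between the sexes in how liver gene expression responded to β-estradiol was measured in zebrafish (Danio rerio), as the response of females minus the response of males. All 12 RNA sequencing libraries of the study entered it, because the difference needs each of its 4 groups of 3 libraries: female estradiol, female DMSO, male estradiol and male DMSO. Every group held adult wild-type fish that were moved to tanks of their own at 3 months of age and then given β-estradiol, the main ovarian estrogen, or DMSO, its solvent, each day for 6 weeks. Whether the libraries of a group came from different fish is not given by the labels, and the p-values therefore refer to the spread among libraries, which may be technical. The estradiol groups hold libraries 19 to 24 and the DMSO groups 7 to 12, and a difference between these blocks of numbers cannot be told apart from the treatment. Of 14581 genes in the table, 9190 had at least 1 FPKM (fragments mapped to a gene, scaled by transcript length and by the fragments mapped in the library) in at least 3 of the 12 libraries and were tested.

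Estradiol binds nuclear receptors that then act on their target genes, and it also acts through the membrane receptor GPER1, which the title of the study names. In egg-laying fish the ovary supplies the estrogen that makes the female liver produce egg yolk precursors, while the male liver carries the same genes and can switch them on when given estrogen. A female liver under DMSO is therefore not an estrogen-free state. A gene can differ in its response between the sexes because both sexes moved in opposite directions, or because only males moved, toward a level that females already had or had passed under DMSO. The first kind is called opposite here. The second kind is called a ceiling, where males rose and female DMSO was already near or above the level they reached, or a floor, where males fell and female DMSO was already near or below it.

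Hepatocyte markers were abundant as a mean in all 4 groups: the mean log2(FPKM + 1) of 15 of them was 9.33 to 12.26 over the 12 libraries. The 15 include apoa2 and apoa1b, listed at 0 in male DMSO, and tfa, listed at 0 in both DMSO groups. Their mean is therefore not a like measure between the groups. fabp10a, the fatty acid binding protein of the hepatocyte, ran over 9842 to 15326 FPKM in female estradiol, 32209.5 to 50080.0 in female DMSO, 6559.8 to 15596 in male estradiol and 68625 to 82284 in male DMSO. Libraries of the same group were less alike under estradiol than under DMSO, with a Spearman correlation over the genes tested of 0.612 to 0.819 in female estradiol, 0.856 to 0.909 in female DMSO, 0.472 to 0.832 in male estradiol and 0.929 to 0.947 in male DMSO. The sum of FPKM per library was 485549 to 1217100 in female estradiol, 791666 to 906620 in female DMSO, 304905 to 786203 in male estradiol and 660052 to 731829 in male DMSO. Transcripts of other organs were present and unequal. The mean log2(FPKM + 1) of 16 intestine genes was 6.70 and 6.96 in female DMSO replicates 1 and 2, 2.23 in replicate 3 and 1.41 to 3.42 in the other groups. For 21 oocyte genes it was 7.23, 0.03 and 4.99 in female estradiol, 1.87, 3.73 and 0.80 in female DMSO, 7.18, 1.89 and 5.88 in male estradiol and at most 0.16 in male DMSO. For 14 genes of the exocrine pancreas it was 1.14 to 4.11 in female estradiol and 2.52 to 4.44 in male estradiol, against 6.14 to 8.32 in female DMSO and 7.27 to 7.82 in male DMSO. The part of these transcripts in the results was not tested beyond the fits given beside them, and in bulk tissue fewer cells of a type and less RNA per cell cannot be told apart.

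Estradiol changed few genes by amounts that could be shown to differ between the sexes. Of the 9190 genes, 24 (0.261%) passed an adjusted p of 0.05 in limma, with the Benjamini-Hochberg method over all genes tested. In 15 of them (0.163%) the female response was above the male response, and in 9 (0.0979%) it was below. Above and below numbered 24 and 7 after quantile normalization, and 22 and 8 after median-of-ratios scaling. At an unadjusted p under 0.05 there were 987 genes (10.7%), where 459.5 would be reached if no gene differed, with the female response below the male response in 709 (7.71%) and above it in 278 (3.03%). The median of all genes was -0.28 on the log2(FPKM + 1) scale, with a median female response of -0.08 and a median male response of 0.21. Quantile normalization moved that median to 0.05, the median-of-ratios scaling to -0.02, and rescaling to a sum without the highest genes to -0.43. Among the 24 genes were 8 of a set of 46 genes listed at exactly 0 in a whole group, which are described apart, since an exact 0 can be a failed estimate. The other 16 genes (0.175% of 9144) were 10 with the female response above the male response and 6 with it below.

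**Figure D1:**
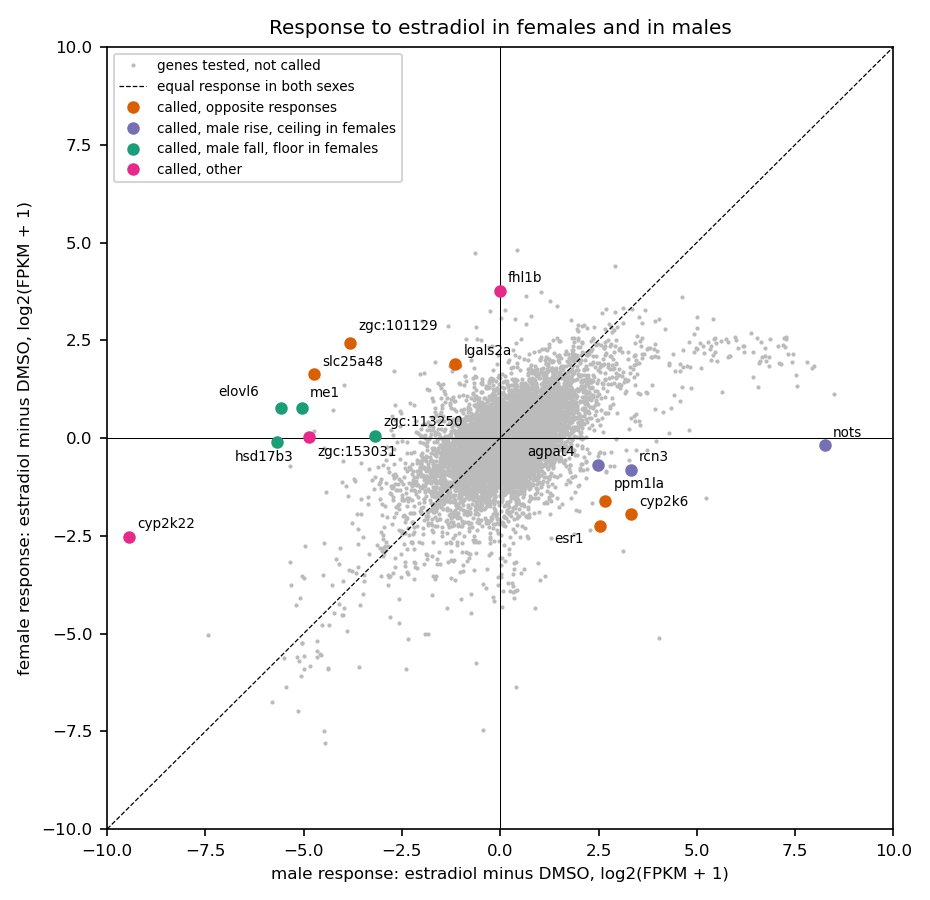
Response to estradiol of the 9144 genes tested outside the exact-0 set, with the male response (estradiol minus DMSO, mean log2(FPKM + 1)) on the horizontal axis and the female response on the vertical axis; grey points were not called for the difference, and coloured points are the 16 called genes by class. nots lies far right near 0 on the female axis, esr1, cyp2k6 and ppm1la lie in the quadrant of male rise with a lower female value, and slc25a48, zgc:101129 and lgals2a lie in the quadrant opposite to it.

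The levels separated the 16 genes into kinds. A sex was counted as responding when its mean moved by at least 1 on the log2 scale and its 3 estradiol libraries did not overlap its 3 DMSO libraries. A response of 1 sex was put at the ceiling or floor when the DMSO mean of the other sex was within 1 log2 unit of its estradiol mean or beyond it, and otherwise left room. By this rule 6 genes had opposite responses, 3 were male rises at the ceiling, 4 were male falls at the floor and 1 was a male fall with room left in females. A further gene responded in females alone, and 1 responded in both sexes in the same direction. Over all 9144 genes outside the exact-0 set, 25 (0.273%) were opposite, 417 moved in the same direction, 357 were male responses at the ceiling and 299 at the floor, and 651 were male responses with room left. Female responses alone numbered 99 at the ceiling, 319 at the floor and 637 with room left, and 6340 genes responded in neither sex. Estradiol and DMSO libraries did not overlap for 28.8% of all genes tested in females and 30.0% in males, so non-overlap alone was common.

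Among the opposite genes was that of the estrogen receptor itself, which had the largest p of all called genes. esr1, which encodes the nuclear estrogen receptor alpha, had 10.3, 13.3 and 11.9 FPKM in the 3 female estradiol libraries, against 88.5, 36.99 and 65.5 in female DMSO. In males it had 4.402, 36.4 and 7.35 FPKM under estradiol and 1.35, 1.06 and 0.785 under DMSO. Neither pair of groups overlapped, and the order was reversed between the sexes: every estradiol library lay below every DMSO library in females and above every one in males. The female response was -2.25 (SE 0.60, adjusted p = 0.0722), which did not pass, and the male rise of 2.54 (SE 0.60, adjusted p = 0.0382) did. Their difference was -4.79 (SE 0.85, adjusted p = 0.0442). Under estradiol the libraries of the sexes overlapped, with a difference of 0.10 (95% interval -1.21 to 1.42), while under DMSO females exceeded males by 4.89 (adjusted p = 0.00161). The call was lost in 9 of 12 fits that each left out 1 library (adjusted p 0.0617 to 0.194). It was kept without female DMSO replicate 3, male estradiol replicate 1 or male estradiol replicate 2. The call also depended on scaling. It was lost after quantile normalization (adjusted p = 0.142) and median-of-ratios scaling (0.0636), and kept after rescaling to a sum without the highest genes (0.0286).

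No other receptor on a list of steroid and related nuclear receptors passed. Of 8 tested, esr1 was the only call, and the median was -0.53, against -0.28 over all genes (0.03 against 0.05 after quantile normalization). esr2b, the other estrogen receptor at a sizeable level, had 2.74, 8.904 and 19.5 FPKM in female estradiol against 24.5, 14.3 and 29.4 in female DMSO, and 0.988, 4.59 and 3.04 in male estradiol against 9.73, 3.98 and 13.3 in male DMSO. Its values under both treatments overlapped in each sex, and the responses were -1.32 in females and -1.36 in males, a difference of 0.04 (95% interval -1.92 to 2.01). esr2a, at 0.291 to 3.24 FPKM in female estradiol and 1.68 to 4.25 in male estradiol, had a difference of -0.81 (adjusted p = 0.675). The estrogen-related receptor gene esrra fell in females by 2.17 (adjusted p = 0.0435), with a male response of -0.94 (adjusted p = 0.2499) and a difference of -1.24 that did not pass (adjusted p = 0.567). The androgen receptor gene ar differed by -0.24 (adjusted p = 0.9501), the progesterone receptor gene pgr by -0.05 (0.987), nr3c1 of the glucocorticoid receptor by -0.14 (0.963) and nr0b2a, an orphan receptor of bile acid control, by -1.88 (0.614). gper1 was at 0 to 0.0490 FPKM over the 12 libraries and esrrga at 0 in all of them, so neither was tested.

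cyp2k6 and ppm1la had the same pattern as esr1, with a lower female and a higher male level under estradiol. cyp2k6, a cytochrome P450 gene, had 8.68, 12.1 and 14.7 FPKM in female estradiol against 59.96, 71.2 and 24.97 in female DMSO, and 4.31, 7.69 and 27.8 in male estradiol against 0.128, 0 and 0.144 in male DMSO. The gene was thus close to 0 in male DMSO alone, and the treatments overlapped in neither sex. Its female response of -1.95 did not pass (adjusted p = 0.0963), its male rise of 3.34 did (adjusted p = 0.00748), and the difference was -5.28 (SE 0.82, adjusted p = 0.0189). ppm1la encodes a metal-dependent protein phosphatase. It had 24.5, 11.95 and 8.34 FPKM in female estradiol against 44.0, 28.7 and 63.5 in female DMSO, and 12.95, 11.1 and 14.8 in male estradiol against 2.18, 0.812 and 0.791 in male DMSO, again with no overlap in either sex. The female response was -1.60 (adjusted p = 0.0813), the male rise 2.67 (adjusted p = 0.00621) and the difference -4.27 (SE 0.63, adjusted p = 0.0139). For all 3 genes the female and male estradiol libraries overlapped while female DMSO lay above male DMSO in every library. Of the fits without 1 library, cyp2k6 lost its call in 6 of 12 (without female estradiol replicate 3, female DMSO replicate 1 or 2, or any male DMSO library, adjusted p 0.0546 to 0.121) and ppm1la in 4 (without female DMSO replicate 1, male estradiol replicate 3 or male DMSO replicate 2 or 3, adjusted p 0.0579 to 0.115).

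In the other 3 opposite genes females were higher and males lower under estradiol. slc25a48 encodes a member of the mitochondrial carrier family. It had 77.7, 109.9 and 167 FPKM in female estradiol against 53.9, 13.2 and 61.2 in female DMSO, and 4.22, 16.5 and 11.6 in male estradiol against 319, 403 and 168 in male DMSO. The sexes changed places: females were the higher sex in every library under estradiol and males in every library under DMSO. Its female response was 1.64 (SE 0.64, adjusted p = 0.186), the male fall -4.74 (SE 0.64, adjusted p = 0.00241) and the difference 6.38 (SE 0.90, adjusted p = 0.0115). Neither sex difference passed on its own, at 3.44 under estradiol (adjusted p = 0.104) and -2.94 under DMSO (adjusted p = 0.0703). The call was lost without male DMSO replicate 1 or 2 (adjusted p 0.0595 to 0.0822).

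zgc:101129, which the RefSeq gene table lists as pbldp, had 53.7, 57.1 and 55.1 FPKM in female estradiol against 16.8, 20.5 and 1.91 in female DMSO, and 8.99, 0.949 and 4.08 in male estradiol against 72.5, 91.6 and 39.1 in male DMSO. The female estradiol libraries lay within a narrow range and above all 3 female DMSO libraries, and the sexes again changed places. Its female response of 2.44 did not pass (adjusted p = 0.104), its male fall of -3.81 did (adjusted p = 0.0154), and the difference was 6.25 (SE 1.06, adjusted p = 0.0386). lgals2a encodes a galectin, a protein that binds sugars carrying galactose. It had 24.1, 10.9 and 13.3 FPKM in female estradiol against 4.21, 2.64 and 3.34 in female DMSO, and 1.45, 2.76 and 1.62 in male estradiol against 6.22, 5.93 and 4.16 in male DMSO. Here the call lay on the female side: the female rise of 1.90 was called (adjusted p = 0.0218), and the male response of -1.14 was not (adjusted p = 0.0975), with a difference of 3.04 (SE 0.52, adjusted p = 0.0393). Under estradiol females were higher by 2.49 (adjusted p = 0.0253), while under DMSO the sexes overlapped. Both calls were lost in 8 of the 12 fits without 1 library, with adjusted p of 0.0579 to 0.177 for zgc:101129 and 0.0709 to 0.182 for lgals2a. zgc:101129 kept its call without female DMSO replicate 2 or 3 or male estradiol replicate 1 or 2, and lgals2a without female estradiol replicate 1 or 2, female DMSO replicate 3 or male estradiol replicate 2.

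**Figure D2:**
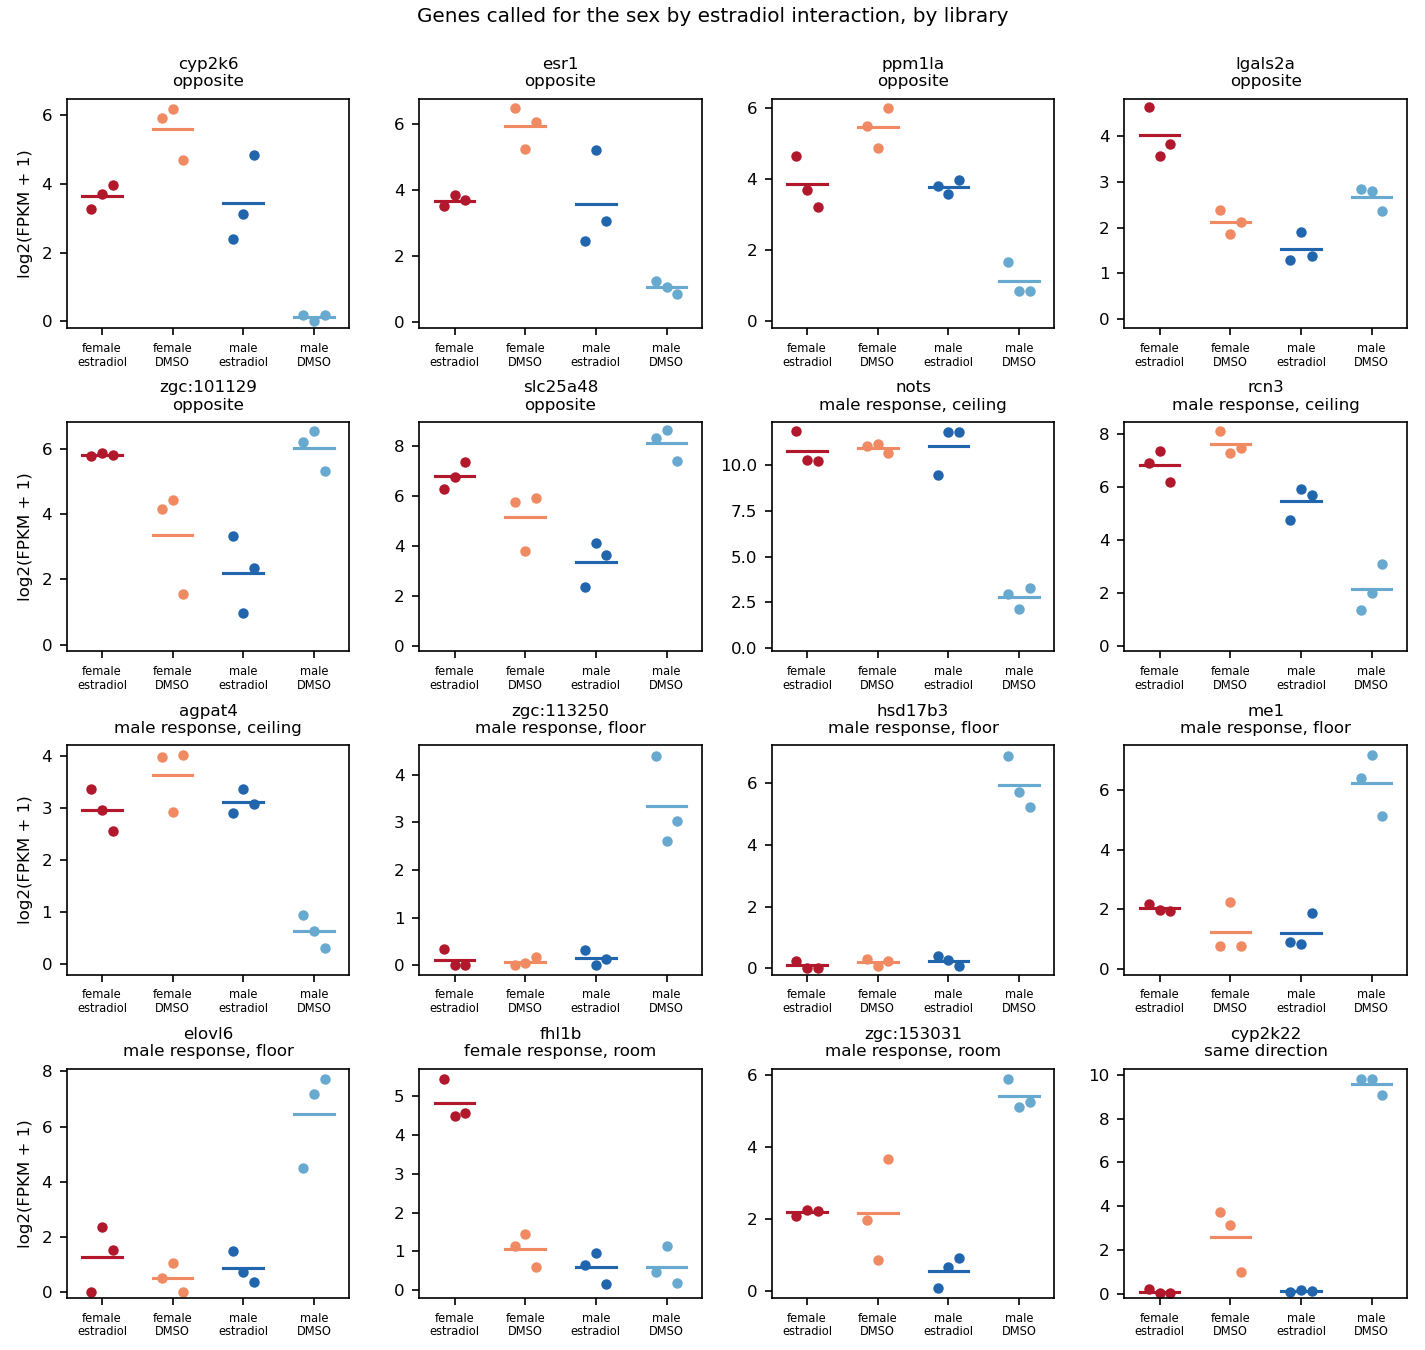
Level of the 16 called genes outside the exact-0 set in each library, as log2(FPKM + 1) on the vertical axis, with 1 point for each of the 3 libraries of a group and a line at the group mean; the class of each gene stands under its name. In cyp2k6, esr1 and ppm1la the female estradiol points lie below female DMSO and the male estradiol points above male DMSO, and in lgals2a, zgc:101129 and slc25a48 both orders are turned round.

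None of the 6 genes had both of its own responses past the threshold: the female response passed in lgals2a and the male response in the other 5. The same held for all 25 genes of the opposite class. In 15 of these the female level was lower under estradiol and in 10 it was higher. All 25 had an unadjusted p under 0.05 for the difference. The class itself asks for opposite moves of at least 1 without overlap, so that count is no further evidence. Among those that missed the threshold for the difference was sult3st2, a sulfotransferase gene (difference 3.60, adjusted p = 0.0753). It was at 36.5, 25.1 and 23.04 FPKM in female estradiol against 11.6, 14.2 and 2.88 in female DMSO. In males it had 2.96, 1.28 and 3.19 FPKM under estradiol against 12.9, 11.1 and 11.6 under DMSO. Its male libraries did not overlap between treatments, and all female estradiol libraries lay above all male estradiol libraries. gne, of sialic acid synthesis, and rnf145b, of a ubiquitin ligase family of the endoplasmic reticulum, had lower female and higher male levels under estradiol (differences -2.76 and -2.73, adjusted p = 0.0833 and 0.0997). dnph1, of nucleotide breakdown, had the reverse order (difference 2.87, adjusted p = 0.0892).

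The limma fit was also run on all 12 libraries with the mean level of the intestine genes as a covariate. The calls of ppm1la (adjusted p = 0.0370) and zgc:101129 (0.0350) were kept in it. Those of slc25a48 (0.118), cyp2k6 (0.181), lgals2a (0.181) and esr1 (0.301) were lost. The opposite responses were also fitted without the libraries rich in RNA of other organs. A fit without female DMSO replicates 1 and 2 leaves that group with 1 library, assumed to vary like the other groups. In it zgc:101129 kept its call. The library left, replicate 3, had 1.91 FPKM of this gene, against 16.8 and 20.5 in the 2 left out, so the female rise was larger there. The other 5 (ppm1la, slc25a48, esr1, cyp2k6 and lgals2a) lost their calls in that fit. With the 4 oocyte-rich estradiol libraries left out each estradiol group is a single library, the spread comes from the DMSO groups alone and 480 genes were called, 181 of them opposite.

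A male rise at the ceiling was measured in nots, agpat4 and rcn3, with male estradiol libraries overlapping the female ones in nots and agpat4 and staying below them in rcn3. nots encodes nothepsin, a protease of the aspartic family that was described in the livers of female fish. It had 3750.1, 1254 and 1186 FPKM in female estradiol against 2153, 2260.4 and 1650.4 in female DMSO, and 718, 3610.4 and 3563 in male estradiol against 6.68, 3.34 and 8.68 in male DMSO. Only the male DMSO libraries stood apart, and those of the other 3 groups overlapped. In nots the female response was -0.17 (95% interval -1.63 to 1.28), the male rise 8.26 (95% interval 6.81 to 9.71) and their difference -8.43 (SE 0.94, adjusted p = 0.00218). Its call was kept with the intestine level as a covariate (adjusted p = 0.0307). That call held in all 12 fits without 1 library, and was lost with the 2 intestine-rich female DMSO libraries left out together (adjusted p = 0.0813).

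rcn3, which encodes a calcium-binding protein of the endoplasmic reticulum, had 119, 163 and 73.1 FPKM in female estradiol against 278, 157 and 176 in female DMSO, and 26.1, 60.6 and 51.5 in male estradiol against 1.56, 2.99 and 7.66 in male DMSO. The male estradiol libraries stayed below all female libraries, so the male rise of 3.32 ended short of the female level, with females higher by 1.35 under estradiol (95% interval 0.22 to 2.49, adjusted p = 0.382) and by 5.48 under DMSO. agpat4 encodes an acyltransferase that makes phosphatidic acid. It had 9.34, 6.79 and 4.87 FPKM in female estradiol against 14.9, 6.57 and 15.2 in female DMSO, and 6.44, 9.37 and 7.49 in male estradiol against 0.926, 0.566 and 0.239 in male DMSO, with overlap of all groups but the last. The differences were -4.12 for rcn3 (SE 0.73, adjusted p = 0.0442) and -3.16 for agpat4 (SE 0.55, adjusted p = 0.0402). Each call was lost in 9 of 12 fits without 1 library, with adjusted p of 0.0554 to 0.201 and 0.0554 to 0.184. rcn3 kept it without female DMSO replicate 3, male estradiol replicate 1 or male DMSO replicate 3, and agpat4 without female estradiol replicate 1 or female DMSO replicate 2 or 3. mfsd6l, a gene of the major facilitator superfamily of transporters, had the same shape but just missed the threshold (difference -2.94, adjusted p = 0.0508).

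A male fall to the level of females was measured in hsd17b3, me1, elovl6 and zgc:113250. hsd17b3 encodes the enzyme that makes testosterone from androstenedione. It had 0.1899, 0.0171 and 0.0154 FPKM in female estradiol against 0.2398, 0.0497 and 0.187 in female DMSO, and 0.323, 0.223 and 0.0519 in male estradiol against 117, 51.8 and 36.6 in male DMSO. All 9 libraries of the first 3 groups were under 1 FPKM and overlapped, and all male DMSO libraries were above them. The female response was -0.11 (95% interval -0.96 to 0.74), the male fall -5.69 and their difference 5.58 (SE 0.55, adjusted p = 0.000702), the smallest adjusted p outside the exact-0 set. With females at the floor, a female fall could not have been measured. The SE pools the spread of all 4 groups, so the small spread of the 3 groups near 0 enters it. It does not measure the spread among the male DMSO libraries alone, and the same holds for zgc:113250 below. The call held in the 9 fits without 1 library in which the gene passed the filter on low values. It passed that filter through the male DMSO libraries alone, so no fit without a male DMSO library tested it. How far the call rests on a single male DMSO library is therefore not known.

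me1 and elovl6 belong to fatty acid synthesis. me1, the cytosolic malic enzyme that supplies NADPH, had 3.51, 2.89 and 2.83 FPKM in female estradiol against 0.681, 3.71 and 0.697 in female DMSO, and 0.845, 0.771 and 2.66 in male estradiol against 84.01, 144 and 34.3 in male DMSO. elovl6, an elongase of long-chain fatty acids, had 0, 4.14 and 1.88 FPKM in female estradiol against 0.429, 1.096 and 0 in female DMSO, and 1.86, 0.6804 and 0.293 in male estradiol against 21.7, 143 and 209 in male DMSO. In both genes the male DMSO libraries lay above all 9 others. The female response was 0.77 in both genes, with a 95% interval of -0.44 to 1.99 for me1 and -0.96 to 2.495 for elovl6, and the male fall was -5.05 for me1 and -5.58 for elovl6. The difference was 5.82 for me1 (SE 0.79, adjusted p = 0.00986) and 6.35 for elovl6 (SE 1.12, adjusted p = 0.0441). With the intestine level as a covariate me1 kept its call (adjusted p = 0.0307) and elovl6 lost it (0.181). me1 kept its call in all 12 fits without 1 library and lost it with the 2 intestine-rich female DMSO libraries left out together (adjusted p = 0.0571), and elovl6 lost it in 9 (adjusted p 0.0554 to 0.182), keeping it without female estradiol replicate 1, female DMSO replicate 3 or male DMSO replicate 1. They were the 2 calls among 22 genes of fatty acid and triglyceride synthesis, whose median of -0.05 changed sign with the setting. zgc:113250, listed as trim35-9 in the RefSeq gene table, was at 0 to 0.266 FPKM in the first 3 groups and at 20.1, 5.097 and 7.16 in male DMSO (difference 3.23, SE 0.56, adjusted p = 0.0402). Its call was lost in 8 of the 9 fits without 1 library in which it was tested (adjusted p 0.0515 to 0.128), and kept without female DMSO replicate 3. Like hsd17b3, it was tested in no fit without a male DMSO library.

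cyp2k22 was the 1 called gene with falls in both sexes. This cytochrome P450 gene had 0.141, 0.0313 and 0.0187 FPKM in female estradiol against 12.3, 7.697 and 0.957 in female DMSO, and 0.0523, 0.118 and 0.0987 in male estradiol against 890.2, 891 and 546 in male DMSO. It was under 1 FPKM in all 6 estradiol libraries, and male DMSO lay far above female DMSO. The female fall of -2.52 (adjusted p = 0.0415) and the male fall of -9.44 (adjusted p = 2.45e-06) ended at the same level, so their difference of 6.92 (SE 0.81, adjusted p = 0.002505) was almost wholly the sex difference under DMSO: females minus males was -0.04 under estradiol and -6.96 under DMSO. The call held in all 12 fits without 1 library, and female DMSO replicate 3, low in intestine RNA, had the lowest value of its group. Here too the SE pools all groups, so the small spread of the estradiol groups near 0 enters it. It does not measure the spread among the female DMSO libraries alone.

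zgc:153031 was a male fall with room left in females. It had 3.23, 3.76 and 3.61 FPKM in female estradiol against 2.91, 0.8098 and 11.7 in female DMSO, and 0.0456, 0.575 and 0.879 in male estradiol against 57.7, 33.04 and 36.9 in male DMSO. Females overlapped between treatments, and the male estradiol libraries lay below all female estradiol libraries and overlapped female DMSO. The female response was 0.01 (95% interval -1.25 to 1.28), the male fall -4.86 (adjusted p = 0.001198) and the difference 4.87 (SE 0.82, adjusted p = 0.0386). The call was lost in 9 of 12 fits without 1 library (adjusted p 0.0646 to 0.168) and kept without female DMSO replicate 2 or 3 or male estradiol replicate 2.

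fhl1b, which encodes a LIM domain protein, was the 1 called gene outside the exact-0 set put down as a response of females alone. It had 42.6, 21.5 and 22.5 FPKM in female estradiol against 1.201, 1.74 and 0.505 in female DMSO, and 0.573, 0.958 and 0.107 in male estradiol against 0.389, 1.21 and 0.145 in male DMSO. The female estradiol libraries stood above the other 9, which overlapped between the sexes and, in males, between treatments. The female rise was 3.77 (SE 0.41, adjusted p = 0.00148) and the male response -0.02 (95% interval -0.90 to 0.87), a difference of 3.79 (SE 0.57, adjusted p = 0.01697). Under estradiol females exceeded males by 4.24 (adjusted p = 0.00208), 1 of 7 genes (0.0762%) higher in females past the threshold under estradiol and 10 (0.109%) in either direction. The call for the difference was lost without female DMSO replicate 1, male estradiol replicate 3 or male DMSO replicate 1 or 2 (adjusted p 0.0579 to 0.115).

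Seen as sex differences under each treatment, the sexes were closer together under estradiol in most called genes. Between females and males 10 genes (0.109%) passed under estradiol, against 51 (0.555%) under DMSO. Of the 16 called genes, 12 had a smaller sex difference under estradiol than under DMSO, and 4 (fhl1b, lgals2a, zgc:101129 and slc25a48) a larger one. The sex difference passed the threshold in 2 of the 16 under estradiol, fhl1b and lgals2a, and in 12 under DMSO. Libraries of the sexes did not overlap in 7 of the 16 under estradiol and in 14 under DMSO, where 12.3% and 30.8% of all genes tested did not. Non-overlap also depends on the spread within a group, and libraries of a group were less alike under estradiol than under DMSO. The response difference is the difference of these sex differences, so these counts describe the called genes and are not a further test.

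**Figure D3:**
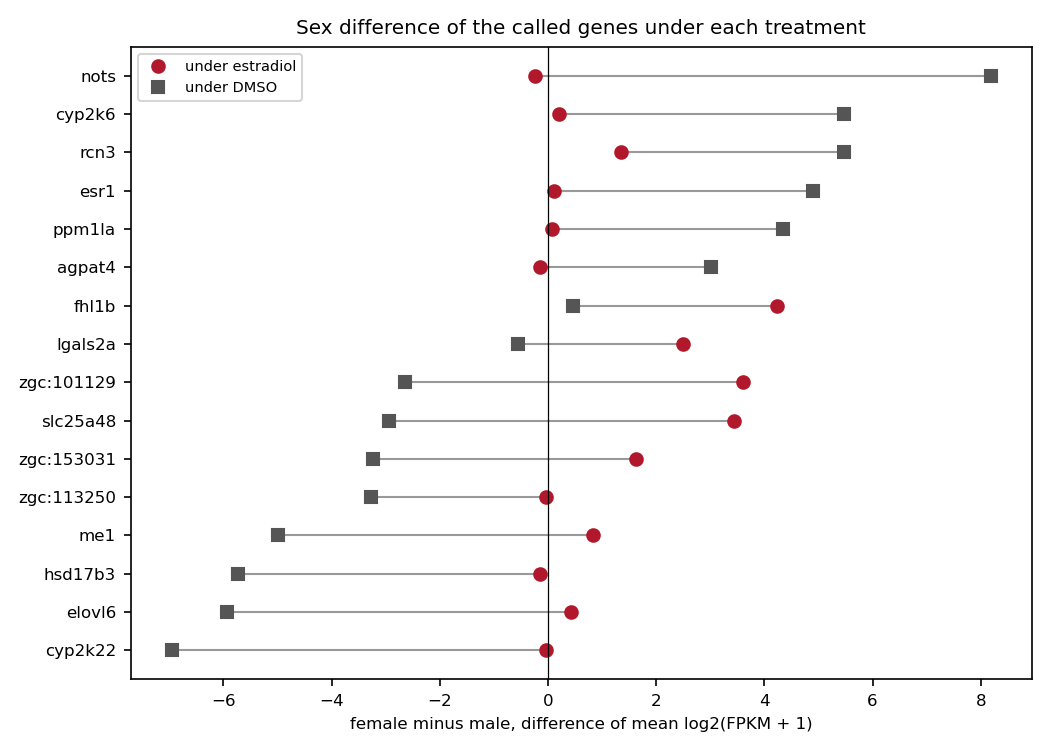
Female minus male difference of mean log2(FPKM + 1) for the 16 called genes, under estradiol (circles) and under DMSO (squares), with a grey line joining the 2 values of a gene. For nots, esr1, ppm1la, agpat4, hsd17b3 and cyp2k22 the circles lie close to 0, and for zgc:101129 and slc25a48 the circles lie above 3 and the squares below -2.

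The position of female DMSO also described the genes that changed in males as a whole. In females 251 genes (2.73%) passed the threshold and in males 348 (3.79%). In females 45 (0.49%) rose and 206 (2.24%) fell, and in males 81 (0.881%) rose and 267 (2.91%) fell. Outside the exact-0 set 76 rose and 258 fell in males. For 26 of the rises, female DMSO was within 1 of the male estradiol mean on the log2 scale or beyond it, and 6 of those were called for the difference. The median female response of these 26 was -0.11, against a median male rise of 2.05. For the other 50 rises, with female DMSO short of the male estradiol mean, no gene was called for the difference in limma (30 had an unadjusted p under 0.05), and the median female response was 0.64. Among the falls, 81 had female DMSO at the floor, with a median female response of -0.65 and 4 calls. The other 177 falls had a median female response of -2.01 and a median male response of -2.82. Of these 90 also fell in females past the threshold, and 4 were called for the difference. Female DMSO enters both the grouping and the female response, so these values are a description.

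The egg yolk precursors could not be read as responses. Vitellogenins are made by the female liver under estrogen, yet all 6 in the table (vtg1, vtg2, vtg4, vtg5, vtg6, vtg7) had a listed value of exactly 0 in all 3 female estradiol, all 3 female DMSO and all 3 male estradiol libraries. vtg1 had 310.3, 41.1 and 34.97 FPKM in male DMSO, vtg2 78.4, 29.7 and 18.7 and vtg5 65.9, 24.4 and 11.2. vtg4, vtg6 and vtg7 had 7.06 to 50.2, 2.85 to 17.1 and 4.298 to 33.2 FPKM there, so that replicate 1 was the highest in every vitellogenin. rgra, an opsin gene of the retina, was listed the same way, with 4.05, 3.798 and 2.82 FPKM in male DMSO. The fit called vtg1, vtg2, vtg4, vtg5 and rgra as if they had fallen in males alone (differences of 2.18 to 6.28), and it did not call vtg6 (adjusted p = 0.0953) or vtg7 (0.0664). No fold is given against a group at 0, and the listed values go against what is known of vitellogenins.

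The mirror pattern was found in 3 abundant genes listed at 0 in male DMSO alone. pmepa1 had 21735, 16838 and 22044 FPKM in female estradiol, 26409, 15388 and 35286 in female DMSO and 7338, 45609 and 35418 in male estradiol. apoa2 and apoa1b, of the apolipoproteins of high density lipoprotein, had 4606 to 15689.6 and 1797 to 9840.3 FPKM in female estradiol, 16994 to 21590.2 and 12217 to 13352 in female DMSO and 5799 to 21759 and 4752 to 37434 in male estradiol. Both apolipoproteins are known as products of hepatocytes in either sex, so a level of 0 in 3 liver libraries goes against their known expression. For all 3 the female and male estradiol libraries overlapped. tfa encodes transferrin, which carries iron in plasma. It was listed at 0 in both DMSO groups and at 2076 to 7012 FPKM in female estradiol and 3919 to 16527 in male estradiol (adjusted p = 0.699 for the difference). Of the 46 genes, 21 were at 0 in male DMSO alone. Among the most abundant of these were zp3a.2 and zp2.5, of the egg coat, which were at 0 also in female estradiol replicate 2 and reached 791 and 598 FPKM in female estradiol replicate 1. A further 7 genes were at 0 in female estradiol alone, 4 in male estradiol alone and 4 in female DMSO alone. The 8 calls of the set were vtg1, vtg2, vtg4, vtg5 and rgra, detected in male DMSO alone, and pmepa1, apoa2 and apoa1b, listed at 0 there alone.

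Leaving the 46 genes out before the fit left 8 calls among 9144 genes. hsd17b3 (adjusted p = 0.00268), nots (0.00519), cyp2k22 (0.00552), me1 (0.0188), slc25a48 (0.0234), ppm1la (0.02903), fhl1b (0.0329) and cyp2k6 (0.03397) kept their calls. esr1, elovl6 and rcn3 lost theirs at an adjusted p of 0.0642, agpat4 and zgc:113250 at 0.0641, and zgc:153031, zgc:101129 and lgals2a at 0.0628. Of the opposite genes 3 thus remained: cyp2k6, ppm1la and slc25a48.

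Pathways were described by lists of genes, with the count called and the median beside those of all genes. Over all genes tested, 7.71% were negative and 3.03% positive at an unadjusted p under 0.05. Of the 9190 genes, 5915 had a value below 0 and 3275 a value above 0. Falls past the threshold made up 2.24% of all genes in females and 2.91% in males. The counts in the lists are to be read against these shares. Cholesterol synthesis stood lowest among the metabolic lists. Of 28 genes tested, 0 were called by limma in either direction, 16 had an unadjusted p under 0.05, all of them with the female response below the male response, and 25 had a value below 0. The median was -2.47, with a median female response of -0.56 and a median male response of 2.09. The median stayed below that of all genes in every setting tried, between -3.32 and -1.76, and was -2.10 with the 2 intestine-rich female DMSO libraries left out. sqlea, of squalene epoxidation, had 1.997, 69.1 and 26.1 FPKM in female estradiol against 79.6, 56.9 and 29.1 in female DMSO, and 65.6, 310.4 and 121 in male estradiol against 0.564, 15.7 and 0.773 in male DMSO. Females overlapped between treatments and males did not, with a male rise of 5.25 (adjusted p = 0.0264) and a difference of -6.79 that did not pass (SE 1.61, adjusted p = 0.174).

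In 3 other cholesterol genes, picked by small p, males were again higher under estradiol, with 2 of the 3 rises past the threshold. mvk, of mevalonate kinase, had 3.48, 16.2 and 4.396 FPKM in female estradiol against 19.6, 10.9 and 2.25 in female DMSO, and 23.3, 72.1 and 60.3 in male estradiol against 1.87, 3.37 and 2.62 in male DMSO. All male estradiol libraries lay above all female estradiol libraries, while the sexes overlapped under DMSO, and the difference was -4.06 (SE 0.996, adjusted p = 0.195). For idi1, an isomerase of the pathway, the female response was 0.34 (95% interval -0.60 to 1.29), the male rise 2.54 (adjusted p = 0.00707) and the difference -2.199 (adjusted p = 0.264). hmgcra, of the rate-limiting reductase, had a difference of -3.61 (adjusted p = 0.291), with a female response of -0.72 and a male response of 2.89 that did not pass (adjusted p = 0.0602). The list's mean level was 2.92, 5.54 and 4.82 in female estradiol, 5.45, 4.83 and 4.68 in female DMSO, 4.98, 6.52 and 5.90 in male estradiol and 3.43, 4.90 and 3.76 in male DMSO on the log2 scale. The males thus did not overlap between treatments and the females did, and female estradiol replicate 1, rich in oocyte transcripts, was the lowest of the 12 libraries. Without it the list's median was -1.76, and with the 4 oocyte-rich estradiol libraries left out it was -2.09.

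**Figure D4:**
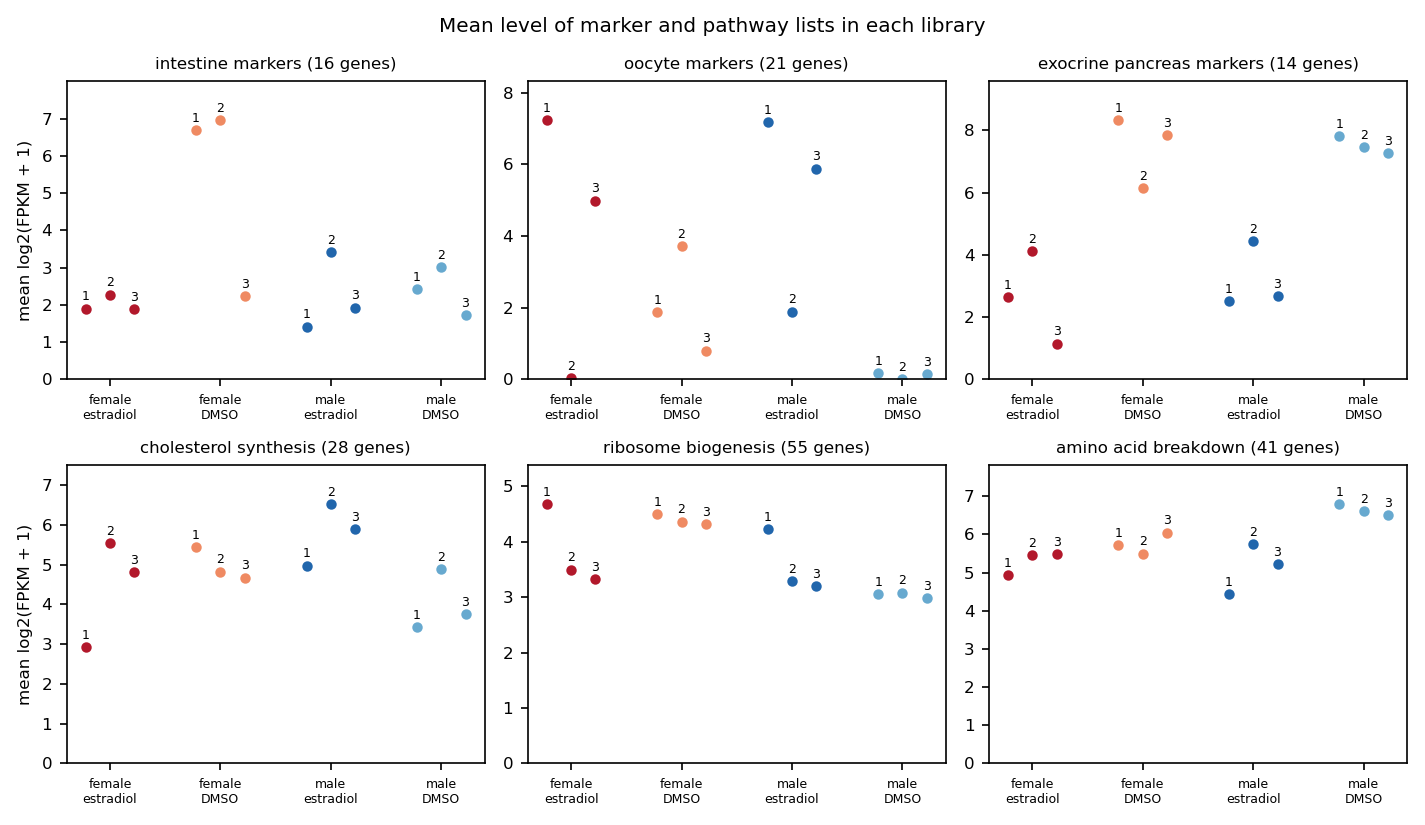
Mean log2(FPKM + 1) of the tested genes of 6 lists in each library, numbered by replicate, for the female estradiol, female DMSO, male estradiol and male DMSO groups. Intestine markers are high in female DMSO replicates 1 and 2, oocyte markers in replicates 1 and 3 of both estradiol groups, and exocrine pancreas markers in both DMSO groups; cholesterol synthesis is higher in male estradiol than in male DMSO.

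Genes of ribosome production also had a lower female than male response in the median. Of 55 genes for ribosome assembly in the nucleolus 0 were called by limma, 16 had an unadjusted p under 0.05, all negative, and 52 had a value below 0. The median was -1.11, with -0.54 for the female and 0.58 for the male response. It ran over -1.48 (without female estradiol replicate 1) to -0.70 (without male estradiol replicate 1) in the settings tried. Both of these libraries were rich in oocyte transcripts. The list's mean level was 4.67, 3.49 and 3.32 in female estradiol and 4.50, 4.36 and 4.31 in female DMSO on the log2 scale. In males it was 4.23, 3.28 and 3.20 under estradiol and 3.05, 3.08 and 2.98 under DMSO. wdr43, of the complex that processes ribosomal RNA, had 22.3, 16.03 and 21.6 FPKM in female estradiol against 52.9, 42.98 and 56.03 in female DMSO, and 31.8, 19.6 and 14.5 in male estradiol against 13.6, 11.7 and 11.1 in male DMSO. Female DMSO was the high group, with all its libraries above those of the other 3 groups, and the difference was -2.04 (SE 0.50, adjusted p = 0.193). heatr1, of the same process, had 4.01, 3.06 and 2.96 FPKM in female estradiol against 12.5, 7.29 and 7.23 in female DMSO, and 9.87, 3.68 and 3.64 in male estradiol against 2.17, 2.29 and 2.24 in male DMSO (difference -2.10, adjusted p = 0.211). For polr1c, a subunit of RNA polymerases I and III, and ltv1, of small subunit assembly, the differences were -1.79 and -1.66 (adjusted p = 0.287 and 0.291). The 81 cytosolic ribosomal proteins, the products that these factors assemble with RNA, had a median of 0.09, which changed sign with the setting (-0.50 without male estradiol replicate 1).

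Protein folding in the endoplasmic reticulum had a median below that of all genes in every setting tried. Of 36 genes of this list 0 were called by limma and 6 were negative at an unadjusted p under 0.05. Below 0 were 34, of which 29 lay under the median of all genes, and the list's median was -0.93. That median ran over -1.88 to -0.40 in the settings tried. It was -0.40 without male estradiol replicate 2, and the smallest gap to the median of all genes was -0.08. The list's mean level in male estradiol was 4.62, 6.61 and 5.16 on the log2 scale, highest in replicate 2. herpud1, of the disposal of misfolded proteins, had 35.2, 26.5 and 22.5 FPKM in female estradiol against 19.04, 8.31 and 13.6 in female DMSO, and 59.5, 146 and 88.9 in male estradiol against 11.4, 13.5 and 10.997 in male DMSO. It had a female response of 1.03 (adjusted p = 0.198) and a male rise of 2.85 (adjusted p = 0.00327), with no overlap in either sex and a difference of -1.81 (adjusted p = 0.296). hspa5, the chaperone BiP, had a female response of 0.42 and a male response of 3.52 (adjusted p = 0.05102), and its male estradiol replicate 2 stood at 3923 FPKM against 419 and 396 in the others. The median of 17 heat shock proteins was -0.52, which was not below that of all genes in every setting (-0.20 against -0.29 at a filter of 5 FPKM). Among them 4 fell in females and 0 in males, with 0 calls by limma for the difference and 4 negative at an unadjusted p under 0.05. hspa9, a chaperone of mitochondria, had 25.5, 35.5 and 20.7 FPKM in female estradiol against 130.0, 116 and 163 in female DMSO, and 58.2, 80.5 and 39.6 in male estradiol against 82.1, 57.5 and 57.4 in male DMSO. Its female fall was -2.30 (adjusted p = 0.0101), its male response -0.18 (95% interval -1.001 to 0.64) and the difference -2.12 (SE 0.53, adjusted p = 0.211).

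Amino acid breakdown, oxidative phosphorylation, fatty acid oxidation and antioxidant enzymes had medians above 0 and above that of all genes in every setting tried. The same held for fatty acid and retinol binding proteins (10 genes, median 0.67). It also held for thyroid hormone deiodinases, receptors and carrier (9 genes, 1.24), and both lists had 0 calls by limma. For the binding proteins, however, the median female response of -2.33 was below the median male response of -0.64. The lower quartile of their difference was -1.91. Medians of some other metabolic lists were below 0, as in lipolysis (-0.75), polyamines (-0.59) and one-carbon metabolism (-0.53). Of 41 genes of amino acid breakdown 37 had a value above 0, with a median of 0.92, 0 called by limma, and 10 positive and 1 negative at an unadjusted p under 0.05. Their median was above that of all genes in every setting tried (0.54 to 1.304). The median response was below 0 in both sexes, at -0.54 in females and -1.49 in males. gstz1, of tyrosine breakdown, had 251, 132 and 162 FPKM in female estradiol against 143, 134 and 183 in female DMSO, and 34.4, 83.6 and 95.9 in male estradiol against 472, 479 and 412 in male DMSO. Males did not overlap between treatments and females did: the female response was 0.20 (95% interval -0.75 to 1.154), the male fall -2.78 (adjusted p = 0.00472) and the difference 2.98 (SE 0.62, adjusted p = 0.0997). fah, of the last step of the same pathway, had a female response of -0.29, a male fall of -2.71 (adjusted p = 0.00653) and a difference of 2.42 (adjusted p = 0.229). bhmt, which remakes methionine from homocysteine, fell by 2.199 in males (adjusted p = 0.0453), and its difference was 3.04 (adjusted p = 0.211). tdo2b, of tryptophan breakdown, had a difference of 5.32 (adjusted p = 0.291), with male estradiol libraries at 0.266, 39.6 and 1.49 FPKM.

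The medians of oxidative phosphorylation (70 genes, 0.71), fatty acid oxidation (30 genes, 0.62) and antioxidant enzymes (28 genes, 0.62) came with 0 calls by limma in each. At an unadjusted p under 0.05 these lists had 1, 3 and 7 positive and 1, 1 and 1 negative genes. In the same order the median response was -0.27, -0.55 and -0.35 in females and -0.94, -1.25 and -1.30 in males. hmox1a, of heme oxygenase, had 14.5, 2.304 and 9.71 FPKM in female estradiol against 13.4, 2.22 and 12.2 in female DMSO, and 0.5496, 38.7 and 1.04 in male estradiol against 227, 373 and 173 in male DMSO. Males fell by 5.62 (adjusted p = 0.0143), females were low under both treatments, and the difference was 5.56 (SE 1.53, adjusted p = 0.252).

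Steroid enzymes, cytochrome P450 genes and plasma proteins had 1 or 2 calls each. Among 24 enzymes that make, convert or conjugate steroids hsd17b3 was the 1 call, and among 35 cytochrome P450 genes cyp2k22 and cyp2k6 were called in opposite directions. cyp2x7 missed the threshold, with 0.345, 1.84 and 2.21 FPKM in female estradiol against 9.91, 17.01 and 15.7 in female DMSO, and 15.1, 38.4 and 28.7 in male estradiol against 27.6, 16.9 and 17.7 in male DMSO. It fell in females, by 2.69 (adjusted p = 0.0121), with a male response of 0.32 (adjusted p = 0.677) and a difference of -3.01 (SE 0.64, adjusted p = 0.114). Of 24 apolipoproteins and plasma proteins the 2 calls, apoa2 and apoa1b, were in the exact-0 set. Of 13 other genes known to respond to estrogen in fish liver the 2 calls were nots and pmepa1, and pmepa1 was in the exact-0 set. rtn1a of the same list, which encodes a reticulon, had a male rise of 4.79 (adjusted p = 0.00402) to a level that females had under DMSO, and a difference of -4.60 (adjusted p = 0.142).

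The PI3K, AKT and mTOR components that the title names were near the middle of all genes. Of 34 tested 0 were called by limma, and 3 had an unadjusted p under 0.05, all negative. Over all genes tested 7.71% were negative at that p, so this count is near the common share. The median was -0.36 against -0.28 over all genes. rragca, of amino acid sensing upstream of mTOR, came first (difference -1.34, adjusted p = 0.369), then eif4ebp3, a repressor of translation (-1.95, 0.399) and the stress gene sesn2 (-1.70, 0.454).

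**Figure D5:**
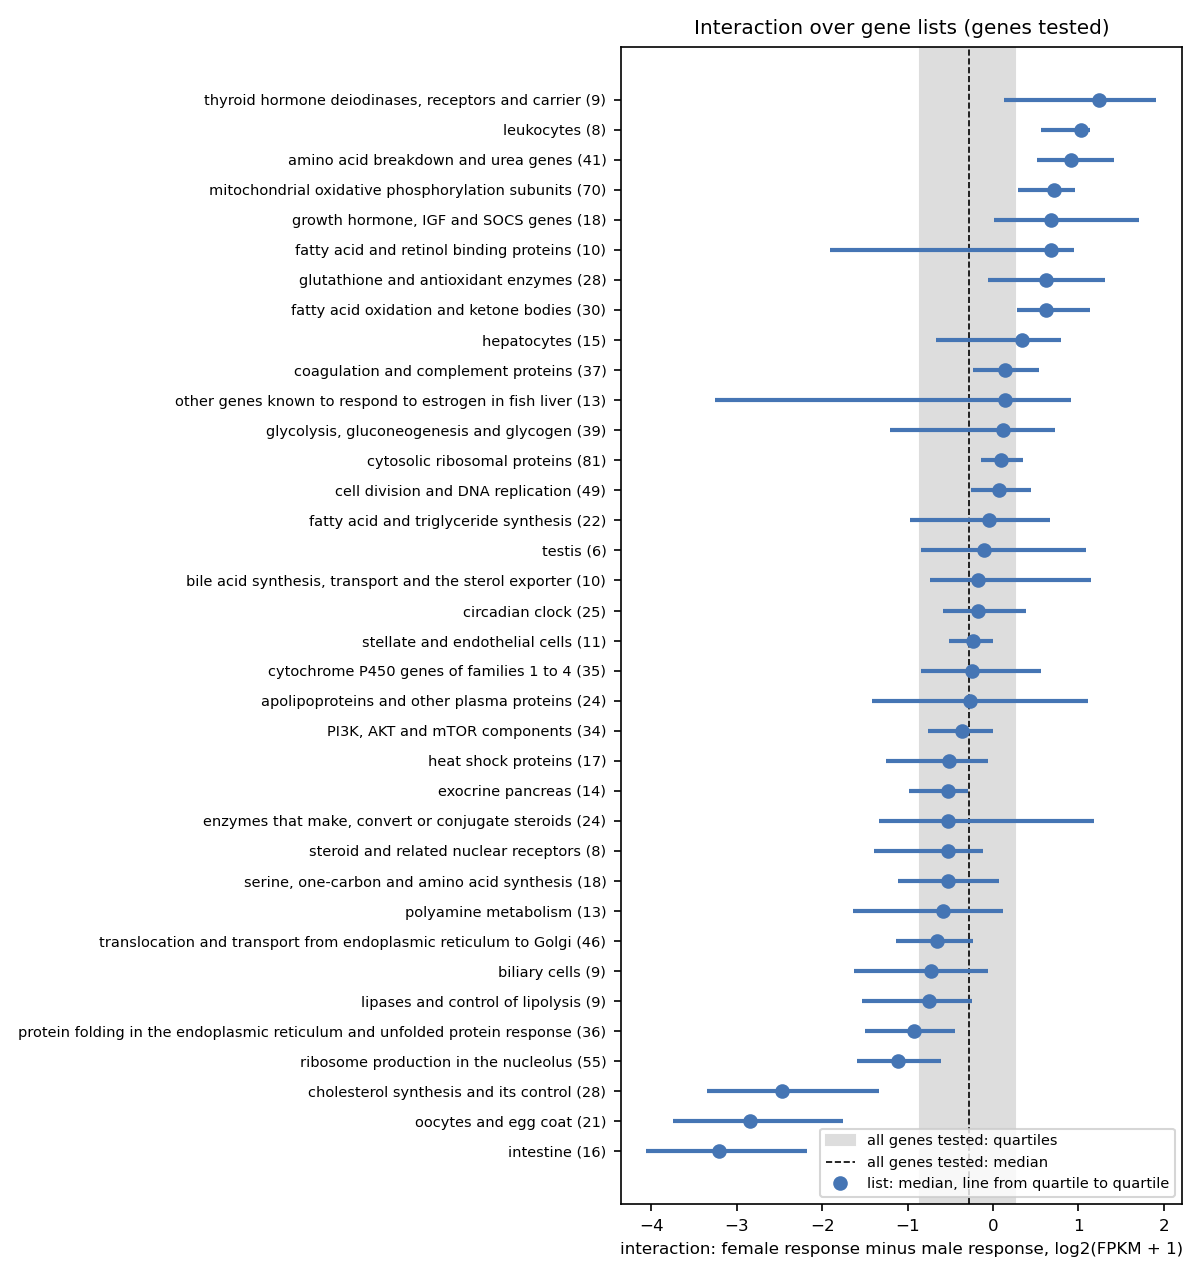
Median (point) and range between the quartiles (line) of the female minus male response for the tested genes of each list with at least 6 genes tested, on the log2(FPKM + 1) scale, with the number of genes in brackets; vitellogenins, all of them in the exact-0 set, are left out. The dashed line and grey band give the median and the quartiles of all 9190 genes. Intestine, oocyte and cholesterol synthesis genes lie to the left of the band. Leukocyte, amino acid breakdown, oxidative phosphorylation and fatty acid oxidation genes lie to the right.

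The 2 lists with the lowest medians were markers of other organs. Intestine genes had a median of -3.21 over 16 tested genes, with 0 calls by limma and 9 genes negative at an unadjusted p under 0.05. With female DMSO replicates 1 and 2 left out the median was -0.21. fabp2, the fatty acid binding protein of the intestine, had 0.192, 2.82 and 0.31 FPKM in female estradiol against 612, 1122 and 47.3 in female DMSO, and 0.65, 20.2 and 12.8 in male estradiol against 23.6, 12.3 and 2.69 in male DMSO (difference -7.03, adjusted p = 0.193). vil1, of the brush border, was at 36.4, 59.4 and 0.0396 FPKM in female DMSO and at most 2.22 elsewhere. Oocyte genes had a median of -2.85 over 21 genes, all of them negative, with 0 calls by limma and 0 at an unadjusted p under 0.05. That median was -4.69 once the 4 oocyte-rich estradiol libraries were left out and -0.73 without female estradiol replicate 2. Exocrine pancreas genes, of which 13 of 14 fell in females and 14 of 14 in males, had a median of -0.52 and 0 calls for the difference by limma (1 positive at an unadjusted p under 0.05). Leukocyte markers had a median of 1.03 over 8 tested genes, all of them above 0. They had 0 calls by limma and 0 genes at an unadjusted p under 0.05.

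Large differences without a call were found in further classes. flvcr1, known as a heme exporter and of the opposite class here, had 0.506, 1.61 and 5.15 FPKM in female estradiol against 18.5, 20.6 and 22.1 in female DMSO, and 2.15, 80.3 and 2.85 in male estradiol against 0, 0.231 and 0.191 in male DMSO (difference -6.02, SE 1.39, adjusted p = 0.1501). apoea, of apolipoprotein E, had the widest difference outside the exact-0 set at -9.15 (SE 2.36, adjusted p = 0.211). Its female DMSO libraries stood at 548, 2043 and 3.68 FPKM, so that the 2 rich in intestine RNA held the high values. Among responses of females alone, lect2l, related to a leukocyte chemotaxin of the liver, rose in females by 4.81 (adjusted p = 0.0264), with 231, 42.5 and 68.0 FPKM in female estradiol against 1.25, 2.39 and 3.096 in female DMSO, and 1.43, 48.7 and 2.63 in male estradiol against 6.19, 6.68 and 2.33 in male DMSO. ldha, of lactate dehydrogenase, fell in females by 3.77 (adjusted p = 0.0326), with 4.56, 3.28 and 6.35 FPKM in female estradiol against 59.203, 130.1 and 55.8 in female DMSO, and 10.1, 111 and 6.69 in male estradiol against 13.3, 15.1 and 20.9 in male DMSO. Male estradiol replicate 2 was the high male value in both genes, and the differences were 4.40 for lect2l and -4.09 for ldha (adjusted p = 0.291 and 0.257). odc1, the first enzyme of polyamine synthesis, had a difference of -5.24 (adjusted p = 0.374), with male estradiol libraries at 17.7, 596 and 5.79 FPKM.

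Among genes with the same direction in both sexes, 1 came close to a call. sat2a, of the spermidine acetyltransferase family, had 0.215, 0.406 and 0.0624 FPKM in female estradiol against 285, 182 and 379.6 in female DMSO, and 9.86, 28.5 and 18.4 in male estradiol against 645, 286 and 350.1 in male DMSO. It fell in both sexes, by 7.80 in females (adjusted p = 4.96e-06) and by 4.45 in males (adjusted p = 0.000365), and the difference of -3.35 missed the threshold (SE 0.66, adjusted p = 0.0833). ugt1a4, of a family that conjugates steroids and bilirubin, had 1.49, 3.43 and 5.71 FPKM in female estradiol against 9.96, 9.198 and 10.5 in female DMSO, and 3.61, 0.346 and 6.53 in male estradiol against 83.03, 61.0 and 87.4 in male DMSO. It fell in males by 4.42 (adjusted p = 0.00176), and the difference was 3.05 (adjusted p = 0.223). sqstm1, the autophagy receptor p62, was of another class, put down as a response of females alone. It rose in females by 1.59 (adjusted p = 0.0368), with 106, 77.1 and 75.6 FPKM in female estradiol against 32.5, 26.8 and 24.04 in female DMSO. In males it had 15.2, 23.8 and 28.6 FPKM under estradiol against 41.4, 48.7 and 35.1 under DMSO (response -0.89, adjusted p = 0.1397), without overlap in either sex, and the difference was 2.48 (adjusted p = 0.0833).

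The number of calls varied with the library left out. It was 24 with all 12 libraries and 25, 16 and 13 without female estradiol replicates 1, 2 and 3. For female DMSO replicates 1, 2 and 3 in turn it was 12, 17 and 77, and for male estradiol replicates 1, 2 and 3 it was 20, 33 and 10. Without male DMSO replicates 1, 2 and 3 it was 9, 6 and 10, of which 8, 6 and 9 were among the 24. It was 7 with the 2 intestine-rich female DMSO libraries left out, 6 of them among the 24, and 480 with the 4 oocyte-rich estradiol libraries left out, 20 of them among the 24. The opposite genes numbered 2 and 181 in those fits, in which female DMSO in the first and both estradiol groups in the second were a single library. cyp2k22, hsd17b3, me1 and nots were the 4 of the 16 genes that kept their calls in every fit without 1 library in which they were tested. For hsd17b3 these did not include the fits without a male DMSO library, where it failed the filter. The filter also left zgc:113250, vtg1, vtg2, vtg4, vtg5 and rgra untested in those fits. Part of the lower number of calls without a male DMSO library was thus fixed by the filter. With the 2 intestine-rich libraries left out cyp2k22, hsd17b3 and zgc:101129 kept theirs, and the other 13 lost them. None of the 16 changed direction in any setting tried.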

How the data were processed

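Liver RNA from 12 libraries was sequenced on directional libraries, per the labels' protocols. The deposited table holds FPKM per gene symbol made by the authors. The submitters' processing notes name cutadapt, TopHat2 2.0.11, Cufflinks 2.2.1 and the danRer7 build, and the annotation is not given in the sources used here. FPKM carries no counts. At most 3.29% of 213 low genes shared a ratio bin 0.01 wide between 2 libraries, so whole fragments could not be recovered, depth is unknown and no count test was run. Of 14581 symbols, 11801 are current in the RefSeq gene table (GRCz12tu) and 14211 are current or synonyms, and that table was used for names only. How fragments shared by genes of the same family (such as the vitellogenins, or cyp2k6 and cyp2k22) were divided is not given in the sources used here. Their levels are therefore uncertain, and how alike these genes are in sequence was not measured. No sequence is printed.

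Values were tested as log2(FPKM + 1) with limma 3.58.1 (R 4.3.3), for genes of at least 1 FPKM in at least 3 libraries, with 1 mean per group, an intensity trend and all 12 libraries in the fit. A fold on this scale understates the change of low genes. A call is an adjusted p under 0.05 by the Benjamini-Hochberg method over all genes tested, and all tests are two-sided. The fit was run on simulated data with known changes, where it found most large differences and missed most of the smallest size put in. Of its calls there, 6.11% were false. The simulation gave each gene 1 spread for all groups. The groups of the real data differ in spread, so these shares need not carry over to them. Plots were drawn with matplotlib 3.10.9 and tables made with pandas 2.3.3 under Python 3.11.15.

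Genes named were the called ones outside the exact-0 set whose mean reached 5 FPKM in a group. They were up to 15 in each direction, filled to 20 by the next smallest p. The rule added up to 5 per class by size and up to 4 called genes per list by smallest p. It also gave all receptors and vitellogenins and up to 10 abundant exact-0 genes. Other uncalled genes given for a list were outside this rule and were picked by small p, with their values seen. Some that this rule gives are left out, and symbols starting with zgc were named after their values were seen. The comparison, the members and the 38 gene lists were chosen with earlier results of these data known. Alternatives changed the pseudocount, filter, scaling, variance model, libraries and covariates. Replicate numbers are not stated to mark a shared animal, tank or day.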

Additional observations from a re-analysis of the deposited data

Results flagged for a closer look

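For 24 genes the response of females differed from that of males past the threshold, by the limma test of that difference itself (adjusted p under 0.05 over 9190 genes). Outside the genes listed at 0 in a whole group, the female response was above the male response in hsd17b3 (log2 difference 5.58), cyp2k22 (6.92), me1 (5.82), slc25a48 (6.38), fhl1b (3.79), zgc:153031 (4.87), zgc:101129 (6.25), lgals2a (3.04), zgc:113250 (3.23) and elovl6 (6.35). It was below the male response in nots (-8.43), ppm1la (-4.27), cyp2k6 (-5.28), agpat4 (-3.16), rcn3 (-4.12) and esr1 (-4.79). Among the genes listed at 0 in a whole group, the fitted differences were -14.74 for apoa2, -14.75 for pmepa1, -14.86 for apoa1b, 6.28 for vtg1, 5.18 for vtg2, 4.78 for vtg5, 4.20 for vtg4 and 2.18 for rgra. These 8 values depend on the pseudocount and are no fold or bound. No group had more than 3 libraries, so single libraries were not tested for standing apart.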

How the results depend on the processing

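The 24 calls (15 positive, 9 negative, 6 of them opposite) were recounted under 28 alternatives, and none of the called genes changed direction in any of them. Of 442 values of called genes outside the exact-0 set, 286 kept their call and 156 lost it. Leaving out 1 library at a time gave 6 to 77 calls, with 2 to 19 positive, 4 to 58 negative and 0 to 14 opposite. The lowest of these counts came without male DMSO replicate 2, where genes that passed the filter through male DMSO alone were not tested. Positive calls numbered 9 at a pseudocount of 0.1 and 24 after quantile normalization. At a pseudocount of 5 there were 5 negative and 3 opposite calls, and rescaling to a sum without the highest genes gave 3 opposite calls. Without the exact-0 genes 8 calls were left (5 positive, 3 negative, 3 opposite). With the 2 intestine-rich female DMSO libraries left out there were 7 (4 positive, 3 negative, 2 opposite), and with the 4 oocyte-rich estradiol libraries left out 480 (67 positive, 413 negative, 181 opposite). The first leaves 1 female DMSO library and the second 1 library in each estradiol group, assumed to vary like the groups with 3. With the oocyte level as a covariate there were 45 calls (25 negative, 11 opposite), with the intestine level 11 (6 positive, 5 negative, 2 opposite) and with the pancreas level 2 opposite calls. Other scalings, filters and variance models gave counts within 1.5 times of the main ones. The cause of these shifts was not tested, beyond the fewer libraries or genes that some of the fits hold. With the replicate number as a block there were 20 calls (14 positive, 6 negative, 5 opposite), 18 of them among the 24. Same-numbered libraries correlated at -0.433 to 0.573 in their deviations from the group means, over 0.1 in 4 of 18 pairs, and a library matched its own number best in 11 of 36 comparisons, so the numbers were not taken to pair the samples. FPKM without counts leaves the counting error of low genes unknown.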
